A study of Homo sapiens with 18 samples.

Results

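The G2 and mitosis genes described here are 44 protein-coding genes whose products carry a cell from the G2 phase through mitosis to division. They were taken by gene name from the deposited gene tables, in which all 44 were found among 60675 gene IDs. All 44 also passed the filter on low values, which kept 18269 genes for testing. The RNA came from U87, a human glioblastoma cell line, exposed for 24 h to a rexinoid at 100 nM or to ethanol. Rexinoids bind the retinoid X receptors (RXR), a family of nuclear receptors that regulate transcription as partners of others. The 6 groups of 3 libraries were Bexarotene, an RXR agonist in clinical use, 4 rexinoids known only by code (A41, A34, A80 and A98), and Ethanol. Ethanol and Bexarotene were the study's controls, all groups came from the same cell line, and the labels give no genetic change to any group. The design asks what each rexinoid did to transcripts, and whether the coded compounds differed from Bexarotene.

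Entry into mitosis is driven by the kinase CDK1 bound to A-type and B-type cyclins and released from inhibition by CDC25 phosphatases. Polo and Aurora kinases then build the spindle, the checkpoint holds anaphase until every kinetochore is attached, and the anaphase-promoting complex ends mitosis by destroying cyclin B and securin. Most of these genes are transcribed mainly in G2 and M, under the MuvB complex with B-Myb and FOXM1, and are repressed by the related DREAM complex in cells that leave the cycle. The summed RNA of such genes is therefore widely used as a readout of proliferation in tumour samples. In bulk RNA a smaller share of dividing cells and less of a transcript per dividing cell cannot be told apart.

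Sequence aligned per library came to between 1.31 and 3.89 gigabases. In 3 libraries ribosomal RNA genes held a large part of TPM: 56.1% for A41 replicate 2, 44.9% for Bexarotene replicate 1 and 35.5% for Ethanol replicate 2, while 15 libraries held between 0.349% and 4.35%. Levels are given as scaled TPM, the deposited TPM (a share of all transcripts, per length) after division by 1 median-of-ratios factor per library. The labels of treated and untreated libraries were set beside 4 genes that respond to rexinoids. These act through retinoic acid receptors (CYP26B1 and DHRS3) or liver X receptors (ABCA1 and SCD). The 4 genes were chosen with earlier results of these data known, and they cannot show which rexinoid a library received. CYP26B1, which degrades retinoic acid, rose with every rexinoid, by a log2 fold change of 3.58 with A41, 1.94 with A34, 1.52 with A80, 1.66 with A98 and 1.62 with Bexarotene. All 4 genes were past the threshold in all 5 comparisons with Ethanol, the threshold being an adjusted p of 0.05 (limma, Benjamini-Hochberg over all genes tested). The cells expressed VIM (4035 scaled TPM on average) and CD44 (1009), as glioblastoma lines of mesenchymal character do. The astrocyte filament gene GFAP stood at 0.783 and the leukocyte gene PTPRC at 0.0571. Other glioma and neuronal markers, GJA1, SLC1A3, CLU, ENO2 and TUBB3 among them, also passed the filter on low values. GFAP alone therefore does not show whether the cells had astrocytic character. Of the markers, CD44 alone was called with a rexinoid, being lower with A41 (log2 fold change -0.38, adjusted p = 0.027). The labels do not state that replicate libraries are separate cultures; p-values therefore reflect only how far libraries differed, which may be technical.

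The promoters of these genes carry sequence marks of their class, and 4 of them are printed because the genes stand for 4 roles: CCNB2 a cyclin, PLK1 a kinase, CDC20 an activator of the anaphase-promoting complex and TOP2A a chromosome protein. The windows are those of RefSeq on GRCh38.p14, from 250 bases before to 50 bases after the transcript start, read 5′ to 3′ on the strand of the gene. They lie at chr15:59104896-59105195 (plus strand, CCNB2), chr16:23678639-23678938 (plus strand, PLK1), chr1:43358731-43359030 (plus strand, CDC20) and chr17:40417847-40418146 (minus strand, TOP2A). Capitals mark the cell cycle homology region (CHR, TTTGAA or TTCGAA), to which MuvB binds, and the CCAAT box, to which NF-Y binds, on either strand.
CCNB2: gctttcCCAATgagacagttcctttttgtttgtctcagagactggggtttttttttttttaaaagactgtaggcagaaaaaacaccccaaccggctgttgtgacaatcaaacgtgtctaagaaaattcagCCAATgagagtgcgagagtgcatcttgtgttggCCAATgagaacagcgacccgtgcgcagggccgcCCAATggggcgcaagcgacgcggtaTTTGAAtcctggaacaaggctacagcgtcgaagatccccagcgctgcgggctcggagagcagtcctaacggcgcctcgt
PLK1: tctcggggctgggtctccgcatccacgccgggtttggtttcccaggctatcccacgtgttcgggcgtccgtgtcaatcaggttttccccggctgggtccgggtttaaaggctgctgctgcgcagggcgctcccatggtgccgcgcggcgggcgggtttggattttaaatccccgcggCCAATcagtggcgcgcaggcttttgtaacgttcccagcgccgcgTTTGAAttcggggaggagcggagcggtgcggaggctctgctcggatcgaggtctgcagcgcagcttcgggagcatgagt
CDC20: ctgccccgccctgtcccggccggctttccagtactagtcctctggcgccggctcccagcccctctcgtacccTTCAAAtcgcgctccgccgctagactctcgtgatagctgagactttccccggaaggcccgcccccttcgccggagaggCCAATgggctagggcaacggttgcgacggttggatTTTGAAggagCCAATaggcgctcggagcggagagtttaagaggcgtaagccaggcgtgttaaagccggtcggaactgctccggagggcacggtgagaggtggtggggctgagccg
TOP2A: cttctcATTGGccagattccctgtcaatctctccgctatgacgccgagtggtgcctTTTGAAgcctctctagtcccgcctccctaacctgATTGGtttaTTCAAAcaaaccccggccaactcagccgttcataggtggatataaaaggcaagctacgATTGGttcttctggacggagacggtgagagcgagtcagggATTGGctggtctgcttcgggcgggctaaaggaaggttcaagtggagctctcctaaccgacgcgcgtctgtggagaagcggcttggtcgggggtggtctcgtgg
In CCNB2 and in PLK1 a CHR began 29 bases before the start, and the nearest CCAAT box began 54 bases before it in CCNB2 and 73 in PLK1. CDC20 held 2 CHR matches and 2 CCAAT boxes, and TOP2A held 2 CHR matches and 4 CCAAT boxes. Of the 44 genes, 36 had a window in the table, 46 windows in all, and AURKA, BIRC5, BUB3, FOXM1, PBK, TPX2, TTK and UBE2C had none. A CHR was found in 30 of the 46 windows (65.2%), against 16.4% of all 35116 windows of the same length. CCAAT boxes were found in 34 (73.9%), against 34.6% of all windows, and both motifs together in 25 (54.4%), against 6.38%. An E2F site (TTTGGCGC, TTTCGCGC, TTCCCGCC or TTGGCGCC, either strand) was in 5 of the 46 (10.9%), against 4.95% of all windows. Of 46 windows of 40 genes of DNA replication in S phase, 2 held a CHR (4.35%), 28 a CCAAT box (60.9%) and 23 an E2F site (50%), so the CCAAT box was frequent in both sets. These matches describe letters within the windows and say nothing of binding in these cells.

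All 44 genes were expressed in every library, and their mean levels spanned a range from 9.53 to 232 scaled TPM. The 3 highest were UBE2C, the ubiquitin-conjugating enzyme of the anaphase-promoting complex (232), PTTG1, the securin that holds back separase (209.8), and TPX2, which activates Aurora A on the spindle (158). The 3 lowest were the phosphatase gene CDC25C (9.53) and the checkpoint genes MAD2L1 (13.6) and TTK (16.8). TPM is per length, so these levels can be compared between genes. Most genes stayed near their own level over the 18 libraries, though the highest value was 2.01 times the lowest in CDC25B and 1.94 times in AURKB. The coefficient of variation had a median of 8.13% over the 44 genes, the lowest being 5.49% in TPX2 and the highest 19.0% in CDC25B. The same median was 18.1% over all genes tested and 10.5% over the 7858 genes within the same range of mean levels. Those 7858 genes had a lower median level, 24.7 scaled TPM against 51.6 for the 44, so the sets were not matched by level. In 9 of the 44 genes, an overlapping gene was expressed at 10% or more of the member's level: CCNA2, CDC25C, CENPA, FOXM1, KIF20A, KIF4A, NUF2, PBK and PRC1. No source used here says whether reads were counted by strand, so the levels of these 9 are uncertain.

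**Figure D1:**
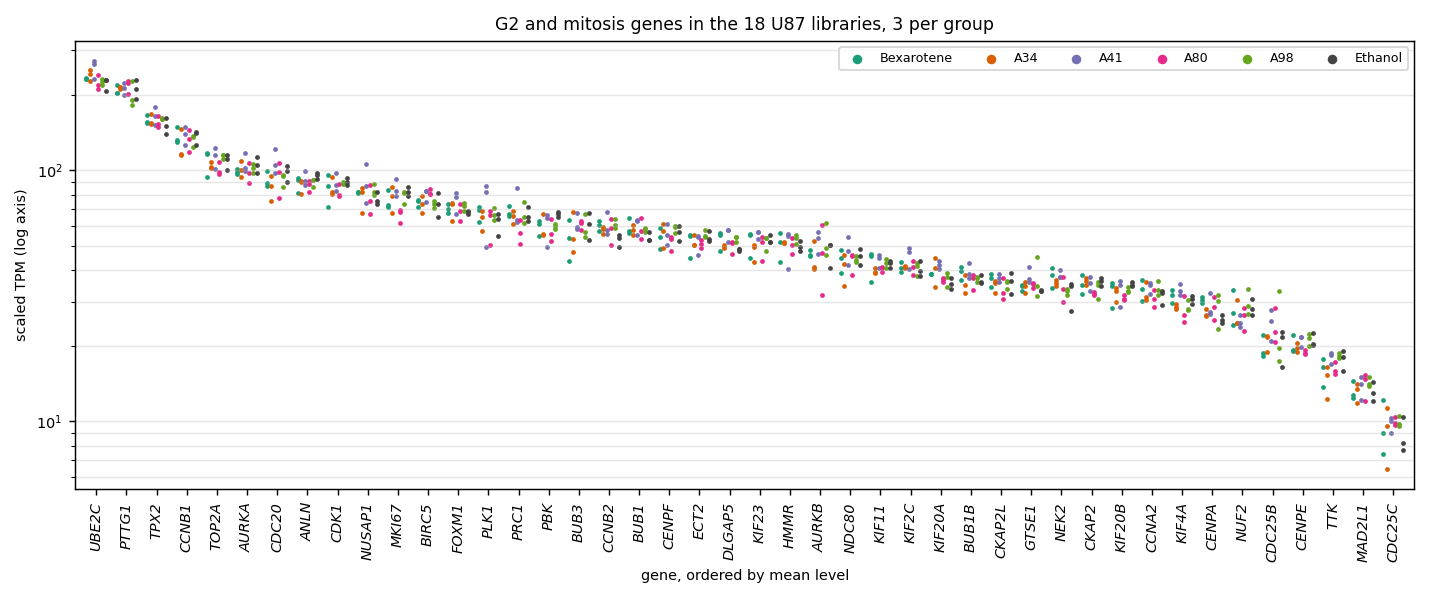
Scaled TPM (log axis) of each of the 44 genes in all 18 libraries, 1 dot per library, with genes ordered by mean level and colours for the 5 rexinoids and Ethanol. The spread of the dots within a gene is small beside the range of mean levels, from 232 scaled TPM on average in UBE2C to 9.53 in CDC25C.

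None of the 44 genes passed the threshold with any rexinoid against Ethanol. The count was 0 of 44 with A41, where 0.755% of all genes tested were called, 0 with A34 (0.0821% of all), 0 with A80 (0.0438%), 0 with A98 (0.0328%) and 0 with Bexarotene (0.0547%). At an unadjusted p under 0.05 limma gave 5 of the 44 with A41 (10.3% of all genes), 1 with A34 (10.7%), 1 with A80 (9.43%), 1 with A98 (6.63%) and 2 with Bexarotene (5.75%). The mean of the 5 rexinoids against Ethanol likewise called 0 (0.203% of all genes), with 1 at an unadjusted p under 0.05 (10.3% of all genes). The 95% intervals show the differences these libraries leave room for, gene by gene and without adjustment for the number of genes and comparisons. In every comparison with Ethanol all 44 intervals lay within a log2 fold change of 1 in either direction. Within 0.5 lay 40 with A41, 44 with A34, 42 with A80, 41 with A98 and 44 with Bexarotene, and the genes with wider intervals were CDC25B, CDC25C, PLK1 and AURKB. The median standard error of a log2 fold change was 0.0933.

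The genes leaned one way or the other by small amounts that differed between rexinoids. With Bexarotene 24 were higher and 20 lower (median log2 fold change 0.0045), and with A34 21 were higher and 23 lower (-0.02). With A41 35 were higher and 9 lower (0.07), with A80 17 and 27 (-0.04), and with A98 29 and 15 (0.03). These medians moved with single libraries. The A80 median was 0.01 without A80 replicate 1 and -0.09 without A80 replicate 2, and the Bexarotene median was 0.05 without Bexarotene replicate 1 and -0.02 without Bexarotene replicate 2 or Ethanol replicate 1. The A34 median lay between -0.06 (without Ethanol replicate 1) and -0.0014 (without A34 replicate 1), and the A98 median between 0.00011 (without Ethanol replicate 1) and 0.05 (without Ethanol replicate 3). The A41 median was 0.12 without Ethanol replicate 3 and 0.06 without A41 replicate 3. The median over all genes tested lay between -0.0068 and 0.004 in these 5 comparisons, which share the Ethanol libraries. Summed over the 44 genes, scaled TPM was 2922 ± 126 with A41, 2721 ± 91.1 with A34, 2691 ± 114 with A80, 2788 ± 32.5 with A98, 2768 ± 136 with Bexarotene and 2756 ± 58.6 with Ethanol (SD, n = 3 each). The sum with A41 was the highest of the 6. Its lowest library, at 2841, was above the highest of Ethanol (2815), A34 (2812), A80 (2774) and A98 (2823). It was under the highest Bexarotene library, at 2879. The sums were not tested, and they weight genes by level. With genes weighted equally (mean log2 deviation from each gene's mean), A41 was still the highest on average (0.070). Its lowest library was then A41 replicate 2 (0.030), the library richest in ribosomal RNA. That value was above every A34 and A80 library but only narrowly above Ethanol replicate 3 (0.026). It was below A98 replicate 3 (0.052) and Bexarotene replicate 2 (0.062).

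**Figure D2:**
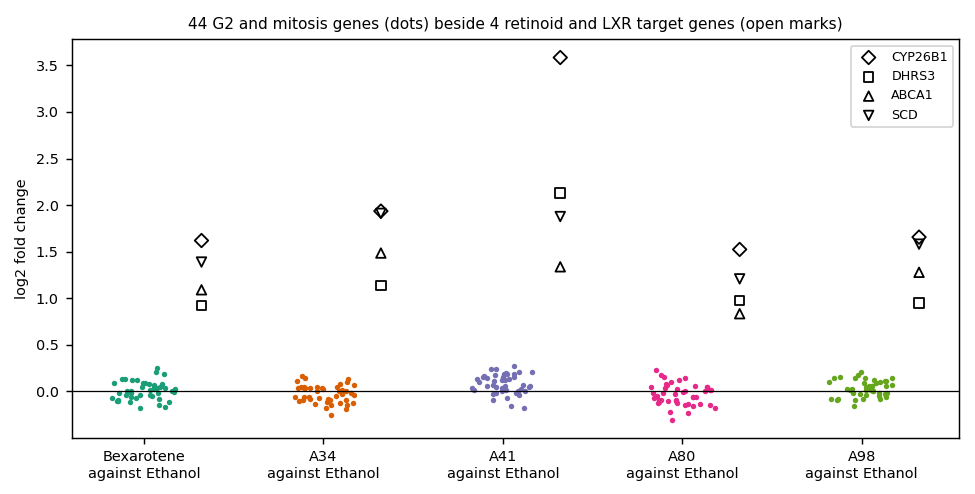
Log2 fold changes against Ethanol (vertical axis) of the 44 G2 and mitosis genes (dots) and of CYP26B1, DHRS3, ABCA1 and SCD (open marks) for each of the 5 rexinoids. The 44 genes lie between -0.30 and 0.27 in all 5 comparisons, and all 4 response genes lie above them, up to 3.58 for CYP26B1 with A41.

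Among the genes of mitotic entry, the catalytic core gave small log2 fold changes, none of them called. CDK1, the kinase itself (chr10:60778331-60794852, GRCh38), had 97.4, 82.9 and 87.2 scaled TPM with A41, 82.2, 80.04 and 94.3 with A34, 78.6, 88.2 and 79.4 with A80, 88.2, 88.7 and 89.9 with A98, 71.2, 95.4 and 86.4 with Bexarotene and 87.4, 89.4 and 92.95 with Ethanol. Every rexinoid group overlapped Ethanol, and the log2 fold changes ran between -0.13 (A80) and -0.01 (A41). CCNB1, the main cyclin partner of CDK1, averaged 138 ± 11.4 with A41, 125 ± 17.6 with A34, 132 ± 12.99 with A80, 132 ± 7.07 with A98, 137 ± 10.4 with Bexarotene and 136 ± 8.93 with Ethanol (SD, n = 3 each). Its log2 fold changes lay between -0.13 (A34) and 0.02 (A41). CCNA2, the cyclin of S phase and early G2, gave 0.11 with A41, 0.04 with A34, -0.03 with A80, 0.10 with A98 and 0.08 with Bexarotene.

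CCNB2, the second B-type cyclin (chr15:59105126-59125045), stood nearest to a difference common to the rexinoids. It had 55.5, 68.01 and 57.9 scaled TPM with A41, 58.4, 55.8 and 59.6 with A34, 64.1, 58.8 and 50.6 with A80, 60.4, 58.7 and 63.7 with A98, 60.2, 57.1 and 62.95 with Bexarotene and 49.4, 55.3 and 53.5 with Ethanol. All libraries of Bexarotene, A34, A41 and A98 lay above all Ethanol libraries, and A80 overlapped them. Against Ethanol the log2 fold changes were 0.19 with A41, 0.13 with A34, 0.12 with A80, 0.21 with A98 and 0.19 with Bexarotene. None passed the threshold, and the mean of the 5 gave 0.17 (95% interval 0.02 to 0.31, adjusted p = 0.40). These comparisons share the 3 Ethanol libraries. Of the phosphatases that release CDK1, CDC25B had the widest intervals among the 44. It had 20.9, 27.8 and 25.02 scaled TPM with A41 against 21.6, 16.5 and 22.7 with Ethanol, a log2 fold change of 0.27 (95% interval -0.14 to 0.68, adjusted p = 0.66), the highest of the 44 in that comparison. With A98 its libraries spread from 17.5 to 33.2, wider than any difference between its group means. CDC25C gave 0.18 with A80 and 0.18 with A98, each with an interval that spanned 0.

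**Figure D3:**
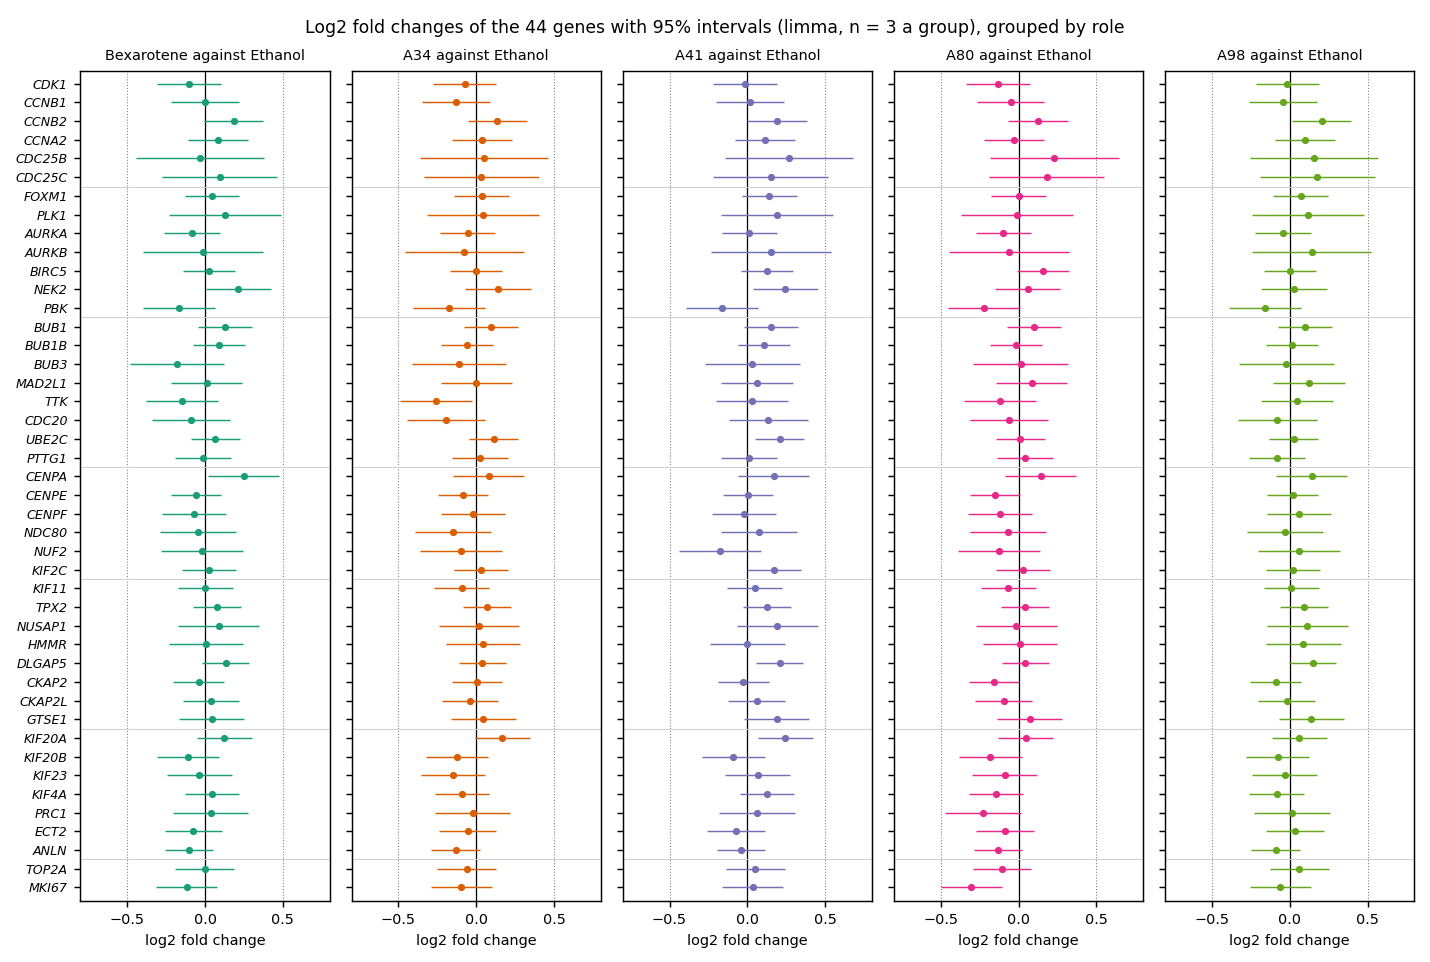
Log2 fold change (horizontal axis) with 95% interval (bars) for each of the 44 genes, 1 panel per rexinoid against Ethanol, genes in order of role with grey lines between the 7 roles. Dotted lines mark 0.5 in either direction; the intervals that cross them with A41 are those of CDC25B, CDC25C, PLK1 and AURKB.

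The kinases of mitosis and the transcription factor FOXM1 gave small log2 fold changes of both signs. FOXM1, the activator of the G2 and M genes, averaged 75.5 ± 7.37 with A41, 70.1 ± 6.395 with A34, 68.2 ± 5.39 with A80, 71.6 ± 2.501 with A98, 70.4 ± 2.64 with Bexarotene and 68.1 ± 0.968 with Ethanol (SD, n = 3 each). PLK1, the polo kinase, had 49.4, 86.3 and 81.6 scaled TPM with A41 and 54.9, 64.01 and 66.8 with Ethanol, a log2 fold change of 0.19 (95% interval -0.17 to 0.55, adjusted p = 0.74). Its A41 libraries straddled the Ethanol range, with replicate 1 below it and the others above it, and without A41 replicate 1 the log2 fold change was 0.44 (adjusted p = 0.16). AURKA, the spindle pole Aurora kinase, lay between -0.10 (A80) and 0.01 (A41). AURKB, the centromere Aurora kinase, lay between -0.08 (A34) and 0.15 (A41), and BIRC5, the survivin subunit of the same chromosomal passenger complex, between 0.00036 (A34) and 0.16 (A80).

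NEK2, the kinase that separates centrosomes, had 33.8, 40.8 and 38.3 scaled TPM with Bexarotene, 37.5, 37.7 and 39.9 with A41 and 27.5, 34.7 and 35.1 with Ethanol. The A41 libraries were all above Ethanol and those of Bexarotene overlapped it. That gave a log2 fold change of 0.24 (95% interval 0.03 to 0.45, adjusted p = 0.4) with A41 and 0.21 with Bexarotene (adjusted p = 0.85). PBK, a mitotic kinase whose gene overlaps ESCO2, was among the 3 lowest of the 44 in all 5 comparisons. It had 52.1, 63.99 and 55.7 scaled TPM with A80 and 64.9, 68.4 and 66.9 with Ethanol, so that all A80 libraries lay below Ethanol. All A98 and Bexarotene libraries lay below Ethanol as well. The log2 fold changes of PBK were -0.16 with A41, -0.17 with A34, -0.22 with A80, -0.16 with A98 and -0.17 with Bexarotene, and the smallest adjusted p was 0.54 (A80).

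Of the checkpoint and anaphase genes, UBE2C came nearest to a call. It had 231, 265 and 272 scaled TPM with A41 and 206, 229 and 228 with Ethanol, a log2 fold change of 0.21 (95% interval 0.05 to 0.36, adjusted p = 0.32). The A41 libraries all lay above the Ethanol libraries, the nearest pair only narrowly. Without A41 replicate 1 the adjusted p of UBE2C was 0.12, the smallest of any of the 44 genes under any alternative tried. TTK, the MPS1 kinase that starts checkpoint signalling, had 12.3, 16.5 and 15.4 scaled TPM with A34 and 15.9, 19.1 and 18.04 with Ethanol, a log2 fold change of -0.26 (95% interval -0.49 to -0.03, adjusted p = 0.41), the lowest of the 44 with A34. The groups overlapped. CDC20, the activator of the anaphase-promoting complex and the protein the checkpoint inhibits, had 75.1, 86.8 and 94.6 with A34, 97.1, 105 and 121 with A41 and 104, 89.96 and 99.2 with Ethanol. Its log2 fold changes were -0.19 with A34 (adjusted p = 0.6) and 0.14 with A41 (adjusted p = 0.73). Among the other checkpoint genes, BUB1 ranged from 0.10 (A34) to 0.15 (A41) and BUB1B from -0.06 (A34) to 0.11 (A41). MAD2L1, which binds and sequesters CDC20, ranged from 0.0003 (A34) to 0.12 (A98). BUB3, the partner of both BUB kinases, was the lowest of the 44 with Bexarotene at -0.18, with an interval of -0.48 to 0.12. PTTG1 ranged from -0.08 (A98) to 0.04 (A80).

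At the kinetochore, CENPA, the histone H3 variant that marks centromeres, was the highest of the 44 with Bexarotene. It had 31.2, 30.5 and 29.5 scaled TPM with Bexarotene and 26.4, 24.7 and 25.3 with Ethanol, without overlap, a log2 fold change of 0.25 (95% interval 0.02 to 0.47, adjusted p = 0.84). CENPA shares bases on the same strand with SLC35F6, a gene at a similar level, so reads could have been assigned to either. CENPE, the kinetochore motor, lay between -0.15 (A80) and 0.02 (A98), and CENPF, a large kinetochore protein of G2, lay between -0.12 (A80) and 0.06 (A98). NUF2, a subunit of the NDC80 complex that grips microtubules, was the lowest of the 44 with A41, at 24.7, 23.7 and 26.4 against 26.5, 30.7 and 27.98 with Ethanol (log2 fold change -0.18, adjusted p = 0.65). Its partner NDC80 gave 0.07 with A41, the opposite sign. The depolymerase gene KIF2C gave 0.17 with A41 and between 0.02 and 0.03 with the other 4.

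Spindle assembly genes were near 0 with most rexinoids. TPX2 was higher by 0.04 (A80) to 0.13 (A41) on the log2 scale, and KIF11, the motor that pushes spindle poles apart, lay between -0.09 (A34) and 0.05 (A41). DLGAP5, which stabilises spindle microtubules, had 58.02, 51.7 and 57.6 scaled TPM with A41 and 48.4, 48.4 and 47.7 with Ethanol, with no overlap and a log2 fold change of 0.21 (95% interval 0.06 to 0.36, adjusted p = 0.28). Its 3 Ethanol libraries lay close together, and all A34 and A98 libraries also lay above them. DLGAP5 gave 0.15 with A98 and 0.13 with Bexarotene. The libraries of Bexarotene and of A80 overlapped Ethanol. CKAP2 had all 3 A80 libraries below all Ethanol libraries, at -0.16. The same held at -0.13 for ANLN, which by role belongs with the midzone and cytokinesis genes. All ANLN libraries of A34 and A98 also lay below Ethanol, so this was not particular to A80. Neither gene was called.

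KIF20A, the midzone motor that brings the passenger complex to the cleavage furrow (chr5:138178719-138187723), had the smallest adjusted p of the 44 in the comparisons with Ethanol. It had 40.5, 42.1 and 43.5 scaled TPM with A41, 44.8, 40.9 and 34.4 with A34, 38.5, 38.6 and 38.5 with Bexarotene and 37.2, 33.5 and 35.3 with Ethanol. The A41 and Bexarotene libraries lay above Ethanol, and those of A34 overlapped it. The A41 values gave a log2 fold change of 0.24 (95% interval 0.07 to 0.42, adjusted p = 0.27). Its relative KIF20B gave -0.09 with A41 and -0.18 with A80. All KIF20B libraries of A34, A80 and A98 lay below all those of Ethanol. KIF23, a subunit of centralspindlin, lay between -0.15 (A34) and 0.07 (A41). PRC1, which bundles midzone microtubules, had 56, 50.6 and 63.4 scaled TPM with A80 and 71.1, 62.9 and 65.1 with Ethanol. Of the 3 A80 libraries, 2 were below every Ethanol library, giving -0.23 (adjusted p = 0.55).

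Of the 2 chromosome proteins, MKI67 gave the widest departure among all 44 genes. MKI67 encodes Ki-67, the coat of mitotic chromosomes and the standard stain for dividing cells (chr10:128096659-128126423). It had 69.4, 61.8 and 68.4 scaled TPM with A80 and 81.5, 86.02 and 79.2 with Ethanol, and the groups did not overlap. The difference was a log2 fold change of -0.30 (95% interval -0.50 to -0.11, adjusted p = 0.36). With the other rexinoids MKI67 gave -0.12 (Bexarotene), -0.10 (A34), 0.03 (A41) and -0.06 (A98). TOP2A, the topoisomerase that untangles sister chromatids, had 96.7, 98.6 and 108 scaled TPM with A80 and 101, 111 and 115 with Ethanol. The 2 groups overlapped, and its log2 fold change with A80 was -0.11 (adjusted p = 0.76).

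Groups that did not overlap were counted for all genes. With A41, 8 of the 44 had all libraries above Ethanol (CCNB2, CENPA, DLGAP5, GTSE1, KIF20A, KIF4A, NEK2 and UBE2C), 18.2%, against 8.27% of all genes tested, and 1 (NUF2) had all below, against 7.67%. With A80, 6 of the 44 lay below Ethanol (13.6%, against 7.78% of all genes), and 1 above (against 8.6%). The counts above and below were 4 and 1 with Bexarotene, 2 and 4 with A34, and 2 and 3 with A98. Those for all genes were 6.88% and 5.9% with Bexarotene, 8.22% and 8.36% with A34, and 8.49% and 8.18% with A98.

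Between rexinoids 10 comparisons were made and none of the 44 genes was called in any of them, nor in the F test for any difference among the 5 (0 of 44, with 0.0657% of all genes called). KIF4A had the smallest p of that F test (unadjusted p = 0.028, adjusted p = 0.73), and MKI67 was the only other of the 44 with an unadjusted p under 0.05 (2 of 44, against 6.32% of all genes). Against Bexarotene, limma called 0 of 44 with A34 (0% of all genes), with A41 (0.115%), with A80 (0%) and with A98 (0.00547%). At an unadjusted p under 0.05 it gave 2 with A80 (6.06% of all genes), both lower, and 0 with A34 (5.2%), A41 (6.23%) and A98 (6.86%). Among the coded rexinoids it called 0 for A41 against A34 (0.0712% of all), A80 (0.126%) and A98 (0.131%). The count was also 0 for A34 against A80 (0%), A34 against A98 (0.00547%) and A80 against A98 (0.00547%). At an unadjusted p under 0.05 there were 5 for A41 against A34 (7.88% of all genes), 6 for A41 against A80 (7.95%), 4 for A41 against A98 (7.15%), 1 for A34 against A80 (3.55%), 1 for A34 against A98 (4.51%) and 3 for A80 against A98 (4.04%).

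Set against each other rexinoid, A41 had the higher mean in most of the genes. Its means were above those of Bexarotene in 41 of the 44 genes (median log2 fold change 0.06), of A34 in 38 (0.10), of A80 in 38 (0.12) and of A98 in 32 (0.05). Over all genes tested A41 was higher in 48.6%, 48.9%, 49.3% and 50.8% of genes in the same 4 comparisons. The lean was not particular to the 44. In the same order, A41 was higher in 30, 37, 36 and 36 of 40 S phase genes. It was higher in 50, 49, 52 and 39 of 61 other mitosis genes. Of 15 genes for G1 cyclins, their kinases and inhibitors, only 6, 8, 5 and 4 were higher. These comparisons share the A41 libraries, of which replicate 2 was the one richest in ribosomal RNA. Against Ethanol the A41 median was 0.10 when the 3 libraries rich in ribosomal RNA were left out. With TPM as deposited, set against the median of all genes, the members' median against A98 changed sign to -0.04, and the A41 medians were 0.03 against A34, 0.05 against A80, 0.04 against Bexarotene and 0.02 against Ethanol. On the same scale the median of A80 against Bexarotene was -0.0042. The A80 means were below those of A98 in 34 of 44 (-0.06) and below those of Bexarotene in 34 (-0.05). MKI67 had 78.8, 82.3 and 91.9 scaled TPM with A41 and 69.4, 61.8 and 68.4 with A80, with no overlap and a log2 fold change of 0.34 (95% interval 0.14 to 0.53, adjusted p = 0.26), the largest difference between coded rexinoids among the 44.

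**Figure D4:**
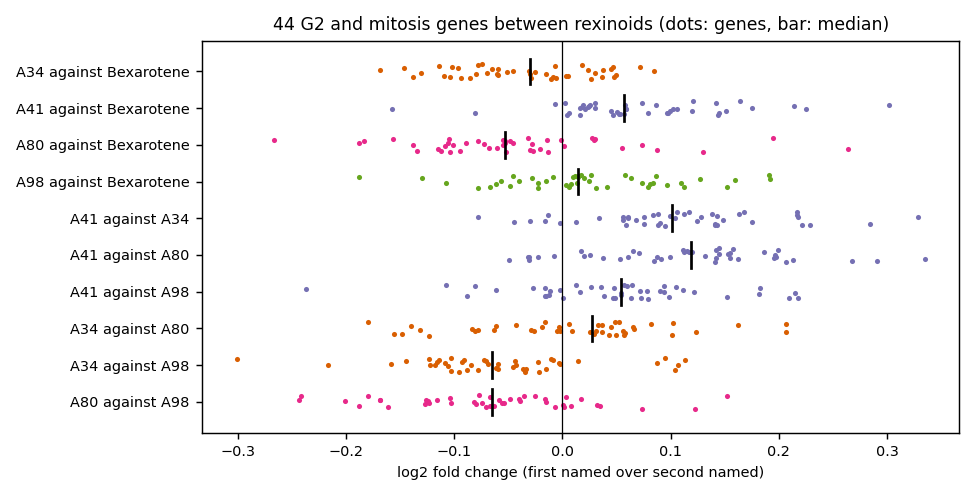
Log2 fold changes of the 44 genes (dots) in the 10 comparisons between rexinoids, the first named over the second, with a black bar at the median. The 4 rows that set A41 over another rexinoid have medians between 0.05 and 0.12, and no gene in any row passed the threshold.

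The genes also leaned with the replicate number in the labels. Across the 6 groups 37 of the 44 genes were lower in replicate 1 than in replicate 3, with a median log2 difference of -0.09, against -0.0041 over all genes tested. None of the 44 passed the threshold (limma with the treatment group as a covariate; 1.66% of all genes were called higher in replicate 1 and 0.328% lower). At an unadjusted p under 0.05 there were 15, all of them lower (6.13% of all genes were lower at that level). AURKB had the smallest adjusted p, 0.058. Its lowest, median and highest values were 31.8, 43.04 and 46.5 scaled TPM in the 6 libraries of replicate 1 and 45.8, 53.04 and 61.6 in those of replicate 3, a log2 difference of -0.37 (95% interval -0.56 to -0.17). The 2 ranges overlapped only narrowly. KIF23 had 43.02, 46.2 and 56.6 in replicate 1 and 49.5, 54.6 and 56.7 in replicate 3, a log2 difference of -0.18 (adjusted p = 0.10). The summed scaled TPM of the 44 was 2684 ± 103 in replicate 1, 2794 ± 61.9 in replicate 2 and 2844 ± 114 in replicate 3 (SD, n = 6 each), and replicate 1 was the lowest library in 6 of 6 groups. By mean log2 level, which weights the genes equally, A41 was an exception, its replicate 2 being lower than its replicate 1.

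Other genes moved with the replicate number as well. Of 20 genes of the hypoxia response and glycolysis, 20 were higher in replicate 1, with a median log2 difference of 0.57. Past the threshold were 15 of them, against 1.66% of all genes. They included CA9, a carbonic anhydrase (log2 difference 1.10), NDRG1, a stress response gene (1.27), SLC2A1, the glucose transporter GLUT1 (0.96), and ALDOC, an aldolase (0.80). Of the markers FN1, CHI3L1 and ENO2 were also called higher in replicate 1. Of 40 S phase genes 36 were lower in replicate 1 (median -0.12) and 0 were called. At an unadjusted limma p under 0.05, 17 of them were lower, against 6.13% of all genes. The hypoxia list also leaned higher with every rexinoid. The median of its 20 genes against Ethanol was 0.22 with A41, 0.68 with A34, 0.68 with A80, 0.44 with A98 and 0.37 with Bexarotene. None of the 20 was called in these 5 comparisons. The unadjusted limma p was under 0.05 in 2 with A41 (10.3% of all genes), 18 with A34 (10.7%) and 19 with A80 (9.43%). It was under 0.05 in 4 with A98 (6.63%) and 2 with Bexarotene (5.75%). The 20 genes moved together (median pairwise r of within-group deviations 0.88), so these counts are not of separate observations. Their mean log2 deviation in replicates 1, 2 and 3 was 0.95, 0.20 and -0.09 with A34. It was 0.95, 0.17 and -0.06 with A80, and -0.34, -0.46 and -0.66 with Ethanol. The part of this list in the levels of the mitosis genes was not tested, and the labels do not say what a replicate number marks.

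**Figure D5:**
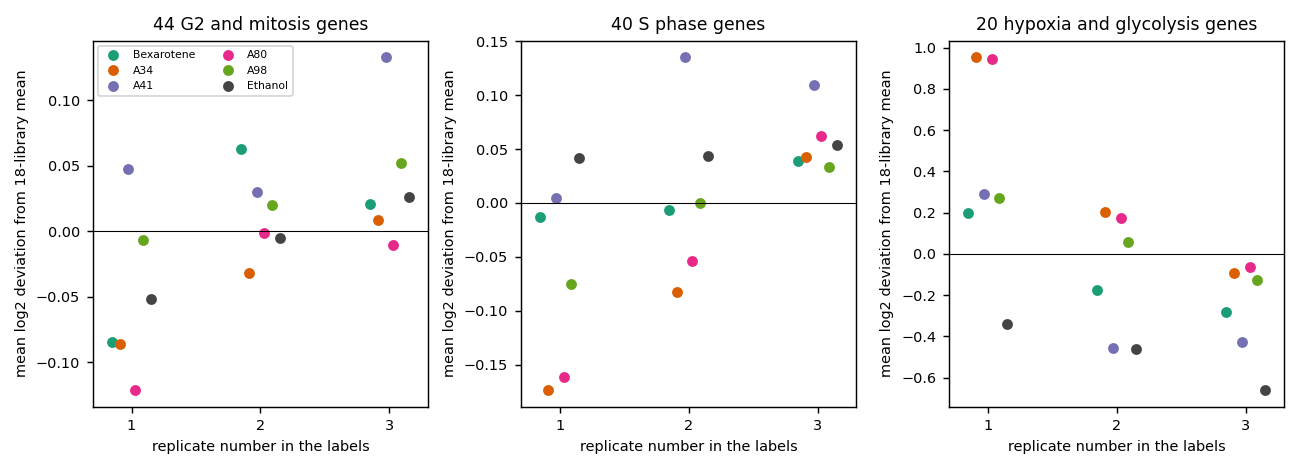
Mean log2 deviation of each library from the 18-library mean (vertical axis, scales differ) by replicate number, for the 44 G2 and mitosis genes, 40 S phase genes and 20 hypoxia and glycolysis genes, with 1 point per library coloured by group. In the left panel replicate 1 lies below replicate 3 in all 6 groups, and in the right panel it lies above.

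Genes of the same pathway outside the 44 gave the same count of 0 with 1 exception. Of 61 other mitosis genes (kinetochore, condensin, spindle and cohesin regulator genes among them), 41 were higher and 20 lower with A41 (median 0.06). With A41 1 was called, MYBL2. In the other 4 comparisons with Ethanol 0 of the 61 were called, and 28 were higher with Bexarotene, 20 with A34, 23 with A80 and 28 with A98. The unadjusted p was under 0.05 in 8 of the 61 with A41 (10.3% of all genes), 7 with A34 (10.7%), 7 with A80 (9.43%), 2 with A98 (6.63%) and 4 with Bexarotene (5.75%). MYBL2 encodes B-Myb, the factor that turns MuvB into an activator of the G2 and M genes. It had 38.96, 49.2 and 41.4 scaled TPM with A41 and 30.1, 29.5 and 31.2 with Ethanol, all 3 A41 libraries being above all 3 of Ethanol. The difference was a log2 fold change of 0.49 (95% interval 0.28 to 0.71, adjusted p = 0.03). This call was lost in 10 of 13 alternatives. In 8 of these the log2 fold change lay between 0.40 and 0.52 (adjusted p between 0.076 and 0.19), among them those without A41 replicate 2, without A41 replicate 3 and without each Ethanol library. With the 3 libraries rich in ribosomal RNA left out it was 0.38 (adjusted p = 0.10), and with TPM as deposited 0.16 (adjusted p = 0.86), where the median of all genes was itself shifted by -0.27. With the other rexinoids MYBL2 gave 0.29 (Bexarotene), 0.21 (A34), 0.22 (A80) and 0.09 (A98), none past the threshold.

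The lists for the rest of the cell cycle also gave few calls, and with A41 they leaned in different directions. Among 40 S phase genes 30 were higher and 10 lower with A41 (median 0.07), 7 and 33 with A34 (-0.12), 6 and 34 with A80 (-0.10), 10 and 30 with A98 (-0.05), and 13 and 27 with Bexarotene (-0.02). By limma 0 were called in each. The unadjusted limma p was under 0.05 in 3 with A41 (10.3% of all genes), 7 with A34 (10.7%) and 6 with A80 (9.43%). It was under 0.05 in 2 with A98 (6.63%) and 1 with Bexarotene (5.75%). Of 18 genes for G1 cyclins, their kinases and inhibitors 15 were tested, and 0 were called with any rexinoid against Ethanol. Of these 15, 4 were higher and 11 lower with A41 (median -0.15), and 3 and 12 with A34 (-0.13). The counts were 5 and 10 with A80 (-0.05), 5 and 10 with A98 (-0.06), and 4 and 11 with Bexarotene (-0.07). Their unadjusted limma p was under 0.05 in 2 with A41 (10.3% of all genes) and 4 with A34 (10.7%). It was under 0.05 in 0 with A80 (9.43%), A98 (6.63%) and Bexarotene (5.75%). CCND1, the cyclin of G1, gave -0.20 with A41, -0.24 with A34, -0.15 with A80, -0.09 with A98 and -0.18 with Bexarotene. CDKN1A, the p21 inhibitor whose product favours assembly of the DREAM repressor, averaged 82.6 ± 3.57 with A41 and 96.6 ± 7.097 with Ethanol (SD, n = 3 each), a log2 fold change of -0.22 (95% interval -0.37 to -0.07, adjusted p = 0.23). Of 18 upstream regulators MYBL2 was the only gene called, and it was called only with A41. The medians of the 18 lay between -0.08 (A34) and 0.0069 (A80).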

How the data were processed

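RNA libraries were made after probe-based removal of ribosomal RNA, per the labels' protocols. The submitters' processing notes name STAR, StringTie and MultiQC, and build GRCh38, without versions; the annotation release and any use of strand were not given in the sources used here. The authors deposited 1 gene table for each library with columns for TPM, FPKM and coverage, per the file headers. FPKM and coverage (a deposited signal, mean reads per base) were used only for depth, from their ratio: 1.31 to 3.89 gigabases, which limits low genes most. No counts were among these columns, so no count model was run.

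Repeated gene IDs (2 to 3 in a library) were summed, and the deposited TPM was scaled by median of ratios (factors 0.419 to 1.21) over 16349 genes. The 18269 genes at or above 1 TPM in 3 or more of the 18 libraries entered the fit. Log2(scaled TPM + 1) was modelled with limma 3.58.1 in R 4.3.3 (6 groups, 12 residual degrees of freedom, mean-level trend, two-sided tests, Benjamini-Hochberg over all genes tested, threshold 0.05). Fold changes on this scale understate those of low genes. Identical libraries were looked for, and 0 pairs were found. Groups and replicate numbers follow the labels, although tables of the A98 group carry another code and some other numbers in their names. The members and the gene lists (other mitosis, S phase, G1, upstream regulators, hypoxia and glycolysis, rexinoid response, cell type markers) were chosen with earlier results of these data known. Genes were named by role, by rank in a comparison with Ethanol (3 highest and 3 lowest), by level, and from other lists where called. KIF11, DLGAP5, GTSE1, KIF4A, NDC80, KIF2C, CCND1 and CDKN1A fell outside this rule and were chosen after their values were seen. The fit was tested on simulated data.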

Additional observations from a re-analysis of the deposited data

How the results depend on the processing

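The count of the 44 genes past the threshold was 0 in all 10 results and stayed 0 under all 162 alternatives computed: TPM as deposited, a pseudocount of 0.25, no filter on low values, only the groups compared, a replicate block from title or file numbers, without the libraries rich in ribosomal RNA, and without each library in turn (0 to 0). Of 2860 values of these genes against Ethanol under alternatives, 0 passed the threshold, the smallest adjusted p being 0.12. Over all genes, deviations of same-numbered libraries correlated at r between -0.36 and 0.31, over 0.1 in 11 of 45 pairs (9 of 18 libraries correlated best with their own number), so the numbers are not taken as pairs, although replicates 1 and 3 differed in the genes described above. With the replicate block, from title or file numbers, 0 of the 44 genes were called. For UBE2C with A41 the adjusted limma p was 0.16 with title numbers, 0.23 with file numbers and 0.32 without a block. For MKI67 with A80 it was 0.21, 0.44 and 0.36 in the same order. TPM as deposited shifted the median of all genes by -0.16 with Bexarotene, -0.27 with A41 and 0.15 with A98. Relative to that shift the members' medians were -0.03, 0.02 and 0.05, so that with Bexarotene the sign turned. With the block from file numbers the A98 median was -0.0061. With 3 libraries a group the intervals were widest in CDC25B, CDC25C, PLK1 and AURKB. Their within-group SDs on the log2 scale were 0.26, 0.22, 0.23 and 0.24, against a median of 0.11 over the 44 genes. The source of this spread was not tested. Differences of 0.24 (KIF20A with A41) and -0.30 (MKI67 with A80) on the log2 scale did not pass the threshold.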
